A study of Mus musculus with 6 samples.

Results

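The microRNAs described here are those of the miR-143, miR-145a, miR-199a, miR-199b and miR-214 hairpins, taken by name from small RNA libraries of mouse iBN cells, with all arms included. They came to 10 of the 1915 mature names in the count table: mmu-miR-143-3p and mmu-miR-143-5p, mmu-miR-145a-5p and mmu-miR-145a-3p, mmu-miR-199a-3p and mmu-miR-199a-5p, mmu-miR-199b-3p and mmu-miR-199b-5p, and mmu-miR-214-3p and mmu-miR-214-5p, written below without the species prefix. They stand for 9 measurements, because miR-199a-3p and miR-199b-3p share their reads and were counted once. The libraries were made from cells kept for 72 hours in doxycycline at 1000 ng/ml (n = 3 libraries, trials 1, 2 and 3) and from uninduced cells (n = 3 libraries, trials 1, 2 and 3). No culture time was recorded for the uninduced cells. All cells carried a PU.1-inducible system, were labelled as granulocyte-macrophage progenitors, and grew in suspension in medium with GM-CSF and fetal bovine serum. PU.1 is the myeloid transcription factor encoded by Spi1. The labels do not name the promoter of the inducible gene or say whether the line is a clone. Doxycycline was not analysed here in cells that lack the inducible gene, so effects of doxycycline and of PU.1 cannot be told apart. Whether each trial was a culture of its own is not stated in the labels, so the p-values reflect only how far these libraries spread, and that spread may be technical.

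A microRNA hairpin is cut into a 5p and a 3p arm, and the arm that is loaded into Argonaute represses messenger RNAs that match its seed (bases 2 to 8). miR-143 and miR-145a are neighbouring hairpins made from one transcript and are best known from fibroblasts and from smooth muscle, where they promote the contractile state. The human miR-145 locus lies in a region that is lost in a form of myelodysplastic syndrome. The miR-199a-2 and miR-214 hairpins are also made from one transcript, Dnm3os, which is known from developing skeleton and connective tissue, and miR-199a-1 and miR-199b are separate copies within genes of the same dynamin family. The word mesenchymal is a name from those tissues and not from the cells sequenced here.

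The sequences below, from RefSeq on GRCm38.p6, show which arms a read can tell apart, and capitals mark the seed. Of the 10 members, 5 matched a mature sequence in that set, and the others are named only.
miR-199a-3p and miR-199b-3p: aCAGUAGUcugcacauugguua
miR-199a-5p: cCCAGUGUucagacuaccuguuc
miR-214-3p: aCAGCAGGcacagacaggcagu
miR-214-5p: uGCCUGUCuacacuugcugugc
The miR-199a-3p and miR-199b-3p sequences are the same 22 bases, so a read within them cannot be assigned to one of the 3 miR-199 hairpins. The 2 names had 3369 and 3368 reads in all. The miR-214-3p seed differs from that of miR-199-3p. Among the 1623 names with a sequence, miR-761 was the only one outside the members to share one of the seeds printed here, that of miR-214-3p, and it had 0 reads in all 6 libraries.

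The hairpins that give the shared arm are printed next, with the arms of known position in capitals, because they differ mainly outside those arms.
miR-199a-1: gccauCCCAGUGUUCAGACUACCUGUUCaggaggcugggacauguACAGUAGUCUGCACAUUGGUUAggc
miR-199a-2: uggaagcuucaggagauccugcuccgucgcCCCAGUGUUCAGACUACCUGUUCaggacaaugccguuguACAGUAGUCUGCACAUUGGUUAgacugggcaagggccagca
miR-199b: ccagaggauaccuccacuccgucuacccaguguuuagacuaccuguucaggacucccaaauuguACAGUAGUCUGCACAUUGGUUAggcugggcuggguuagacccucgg
On GRCm38, miR-199a-1 lies at chr9:21496495-21496564 on the minus strand, within an intron of Dnm2 and antisense to it. miR-199a-2 lies at chr1:162217814-162217923 on the plus strand, in an exon of Dnm3os and antisense to an intron of Dnm3. miR-199b lies at chr2:32318460-32318569 on the plus strand, antisense to an intron of Dnm1. The miR-199a-5p sequence aligned to bases 26 to 48 of the miR-199b hairpin with 1 mismatch, C10U, counted from the 5′ end of miR-199a-5p. The 5p arms, unlike the 3p arm, can therefore be assigned, as far as the alignment kept reads with a mismatch apart, a setting that is not given in the sources used here. miR-214 lies at chr1:162223368-162223477 on the plus strand, also in an exon of Dnm3os, with 5444 bases between it and miR-199a-2.

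With 1 entry kept per mature name, the induced libraries held 9089319 to 13946613 reads and the uninduced libraries 8697384 to 11714847 reads. Where a library had 0 reads of an arm, the limit was taken as 3 reads, which is 0.215 to 0.345 CPM when divided by the library total alone. Levels are given below as CPM, the read count scaled to library size with TMM factors, and limits for counts of 0 as CPM without them. The labels describe no molecular identifiers, so this limit and the intervals below cover counting error only. Blood cell identity was read from 5 blood cell microRNAs, which do not check the labelled progenitor stage. They summed to 74274 to 91870 CPM in the induced and 71759 to 90767 CPM in the uninduced libraries. Most of the sum was miR-142a-5p, a microRNA of blood cell lineages, which averaged 63535 ± 11122 CPM in induced and 61398 ± 10982 CPM in uninduced cells (SD, n = 3 each). None of the 5 passed edgeR's quasi-likelihood test, with 0 at an unadjusted p under 0.05 and 0 called by DESeq2 or limma-voom.

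Against that pool the members were sparse. Together they made up 0.0185% of the reads of induced and 0.0251% of those of uninduced libraries, and only miR-143-3p and miR-199-3p, as the shared 3p arm is called here, exceeded 10 CPM. Of the 9 measurements, 5 passed the filter on low counts and were tested. miR-143-5p, miR-199a-5p and both arms of miR-214 were not tested. In the order of mean level over the 6 libraries, 144 of the 1915 names stood above miR-143-3p and 200 above miR-199-3p, followed by miR-199b-5p, miR-145a-5p, miR-145a-3p, miR-199a-5p and miR-143-5p. The members from miR-143-3p down to miR-145a-5p did not overlap with their neighbours in any group. The arms of miR-145a overlapped in the induced libraries and not in the uninduced ones. miR-145a-3p and miR-199a-5p met at 0.889 CPM in uninduced trial 2, with 8 reads each, and miR-199a-5p and miR-143-5p overlapped in the induced libraries. Each small RNA gives reads from its whole length, so these levels need no length correction, but adapter ligation is known to favour some sequences over others.

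**Figure D1:**
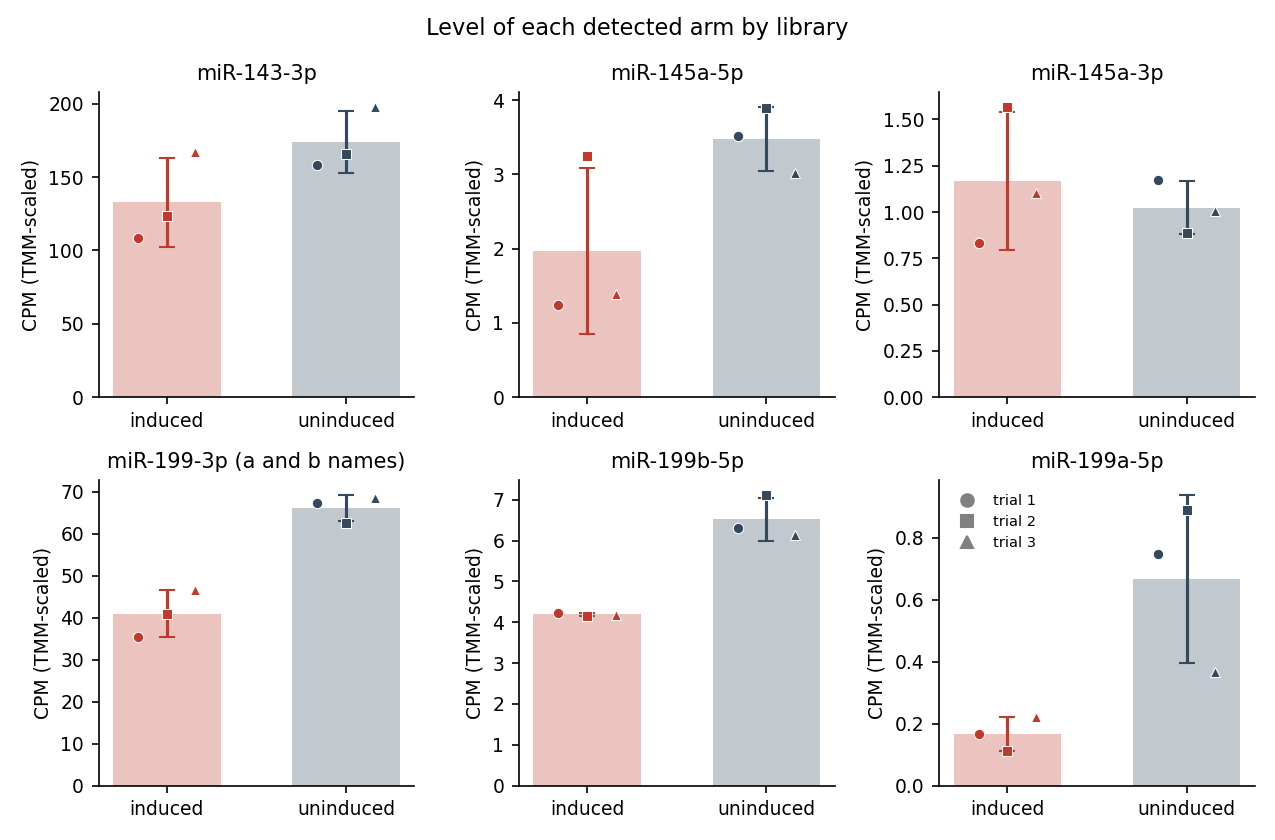
CPM (TMM-scaled, vertical axes starting at 0) of 6 detected arms in 3 induced and 3 uninduced libraries. Points are libraries, with the trial given by the symbol, bars are means and error bars are SDs. miR-199-3p, miR-199b-5p and miR-199a-5p separate the groups, and the other 3 arms overlap between them.

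The miR-143 hairpin gave the most abundant member. It lies on the minus strand of chromosome 18, with 1301 bases between it and miR-145a. Both are within the span that RefSeq gives to the noncoding RNA gene Carmn, but outside the shorter span that GENCODE M21 gives. miR-143-3p, the guide arm of miR-143, had 108.1, 123.4 and 166.8 CPM in the induced libraries of trials 1, 2 and 3, against 158.2, 165.4 and 198.1 CPM in the uninduced ones. It was lower in induced cells in each trial, but the induced library of trial 3 lay above the uninduced libraries of trials 1 and 2, so the groups overlapped. The means were 133 ± 30.4 CPM in induced and 174 ± 21.2 CPM in uninduced cells (SD, n = 3 each), a log2 fold change of -0.39 (SE 0.18) that did not pass the edgeR test at a Benjamini-Hochberg adjusted p of 0.05 (edgeR adjusted p = 0.251). With the trial as a block the log2 fold change was -0.40 (SE 0.09) with an edgeR adjusted p of 0.0082, which passed. That call was lost without trial 1 (edgeR adjusted p = 0.108), trial 2 (0.0512) or trial 3 (0.0869). The log2 fold changes in these fits were -0.33, -0.40 and -0.50. A blocked fit without a trial has few libraries left to estimate the spread, so a lost call there does not by itself show a smaller difference. Without the block the log2 fold change was -0.25 when induced replicate 1 and -0.62 when induced replicate 3 was left out, and neither passed. Trial 3 was the highest library in both groups, and the log2 difference within trials was -0.55, -0.42 and -0.25 in trials 1, 2 and 3. In these whole-culture libraries, fewer cells that make a microRNA and less of it per cell cannot be told apart.

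miR-143-5p, the passenger arm, was nearly absent, with 0, 2 and 1 reads in the induced libraries and 2, 1 and 1 reads in the uninduced libraries of trials 1, 2 and 3. The 3p arm thus took 99.9% of the hairpin's reads in induced cells (4674 of 4677 reads, 95% Wilson interval 99.8 to 100.0) and 99.9% in uninduced cells (5133 of 5137 reads, 95% Wilson interval 99.8 to 100.0). At this depth no difference in miR-143-5p was detectable, since the ratio of induced to uninduced reads per total was 0.644 with a 95% exact interval of 0.0944 to 3.81.

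miR-145a, from the same transcript, was far rarer than miR-143. miR-145a-5p, its guide arm, had 15, 29 and 19 reads in the induced libraries of trials 1, 2 and 3, which is 1.25, 3.25 and 1.40 CPM. The uninduced libraries had 33, 35 and 33 reads, which is 3.52, 3.89 and 3.02 CPM. The induced libraries of trials 1 and 3 were below every uninduced library, while the induced library of trial 2 exceeded the uninduced library of trial 3. The log2 fold change was -0.87 (SE 0.36, edgeR adjusted p = 0.203) without the block and -0.90 (SE 0.29, edgeR adjusted p = 0.042) with it, where it passed. The blocked call was lost without trial 1 (edgeR adjusted p = 0.288) or trial 3 (0.295), where the log2 fold changes were -0.65 and -0.81. Without induced replicate 2 the unblocked log2 fold change was -1.39 (edgeR adjusted p = 0.0543). The SD among the induced libraries was 1.12 CPM, compared with 0.415 CPM expected from counting alone.

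The other arm, miR-145a-3p, had 10, 14 and 15 reads in the induced and 11, 8 and 11 reads in the uninduced libraries of trials 1, 2 and 3. Its means were 1.17 ± 0.374 CPM in induced and 1.02 ± 0.143 CPM in uninduced cells (SD, n = 3 each), and the groups overlapped. The log2 fold change of 0.15 (SE 0.35) did not pass with or without the block (edgeR adjusted p = 0.792 and 0.848), and it was negative, at -0.09, without the induced library of trial 2. Of the miR-145a reads, the 5p arm held 61.8% in induced cells (63 of 102 reads, 95% Wilson interval 52.1 to 70.6) and 77.1% in uninduced cells (101 of 131 reads, 95% Wilson interval 69.2 to 83.5).

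The shared arm miR-199-3p, which is reported to repress MTOR and MET in human cells, was the member called lower on induction both without and with the block. It had 35.4, 40.9 and 46.6 CPM in the induced libraries of trials 1, 2 and 3, against 67.3, 62.7 and 68.6 CPM in the uninduced ones. Each induced library lay below each uninduced one, with a gap between the groups that is wider than the range within either. The means of 41.0 ± 5.63 CPM in induced and 66.2 ± 3.09 CPM in uninduced cells (SD, n = 3 each) gave 0.619 times the uninduced level, a log2 fold change of -0.69 (SE 0.15, edgeR adjusted p = 0.028). With the block it was -0.70 (SE 0.10, edgeR adjusted p = 5.81e-04). Without the block the call was lost when induced replicate 1 (edgeR adjusted p = 0.166), induced replicate 2 (0.107), uninduced replicate 1 (0.132) or uninduced replicate 2 (0.0736) was left out. With the block it was lost without trial 3 (log2 fold change -0.79, SE 0.11, edgeR adjusted p = 0.0833). The log2 fold change kept its sign in each of these fits.

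The 5p arms carry different names for the miR-199a and miR-199b hairpins, but they differ by 1 base and the number of mismatches that the alignment allowed is unknown, so reads of one may have been counted as the other. miR-199b-5p had 51, 37 and 57 reads in the induced libraries of trials 1, 2 and 3, or 4.24, 4.15 and 4.19 CPM. The uninduced libraries had 59, 64 and 67 reads, or 6.30, 7.11 and 6.14 CPM. Every induced library was below every uninduced one. The log2 fold change of -0.63 (SE 0.19, edgeR adjusted p = 0.084) did not pass without the block, and that of -0.63 (SE 0.18, edgeR adjusted p = 0.024) with it did. The blocked call was lost without trial 1 (edgeR adjusted p = 0.114), trial 2 (0.155) or trial 3 (0.112). The log2 fold changes in these fits were -0.655, -0.565 and -0.682. The SD of 0.0438 CPM among the induced libraries is below the 0.610 CPM that counting alone gives, so their closeness says little about the true spread.

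miR-199a-5p, which can come from the miR-199a-1 or the miR-199a-2 hairpin, had only 2, 1 and 3 reads in the induced and 7, 8 and 4 reads in the uninduced libraries of trials 1, 2 and 3. It was too rare to be tested. Every induced library was below every uninduced one in CPM, and the ratio of induced to uninduced reads per total was 0.271 (95% exact interval 0.0887 to 0.707, counting error only). The table enters the arm for both hairpins with the same 25 reads in all, so the copies cannot be told apart by this arm. As the reads were assigned, miR-199b-5p made up 96.0% of the miR-199 5p reads in induced cells (151 reads of both 5p arms, 95% Wilson interval 91.6 to 98.2) and 90.9% in uninduced cells (209 reads of both 5p arms, 95% Wilson interval 86.2 to 94.1).

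Both arms of miR-214, which shares the Dnm3os transcript with miR-199a-2, were at the edge of detection or below. miR-214-3p, its usual guide arm, had 0 of 34415802 reads in induced and 0 of 29574442 reads in uninduced cells, which allows up to 0.0872 and 0.101 CPM. miR-214-5p had 1 read, in the induced library of trial 1, and 0 reads in the uninduced libraries. Over all 6 libraries the 25 reads of miR-199a-5p were 8.33 times the floor of 3 counts taken for miR-214-3p. This ratio leaves out the counting error of the 25 reads and any miR-199b-5p reads counted among them. miR-199a-5p can also come from miR-199a-1, outside Dnm3os.

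The members were then read against all microRNAs in the same fit. Without the block, 1 of the 5 tested measurements fell, miR-199-3p, and 0 rose, whereas 6.10% of the 525 tested microRNAs were called in either direction, 2.67% lower and 3.43% higher. Names that share reads count separately in these shares, and miR-199a-3p and miR-199b-3p were both called lower. With miR-199b-3p left out of the table, 25 microRNAs were called in place of 32. For rises, 0 of the 5 reached an unadjusted edgeR p under 0.05, and DESeq2 and limma-voom also called 0. An unadjusted p under 0.05 was reached downward by 3 of the 5, against 9.33% of all tested. With the trial as a block, 4 of the 5 were called lower, all but miR-145a-3p, against 11.0% of all tested called lower, 10.7% called higher and 21.7% called in either direction. When a trial was left out of that fit, which leaves fewer libraries to estimate the spread, 0 to 2 members were called lower. The members' median log2 fold change was -0.63, and that of all tested microRNAs was 0.02. The groups did not overlap, with induced cells lower, for 2 of the 5 and for 11.6% of all tested. The tested members come from few transcripts, so they are not independent of each other.

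**Figure D2:**
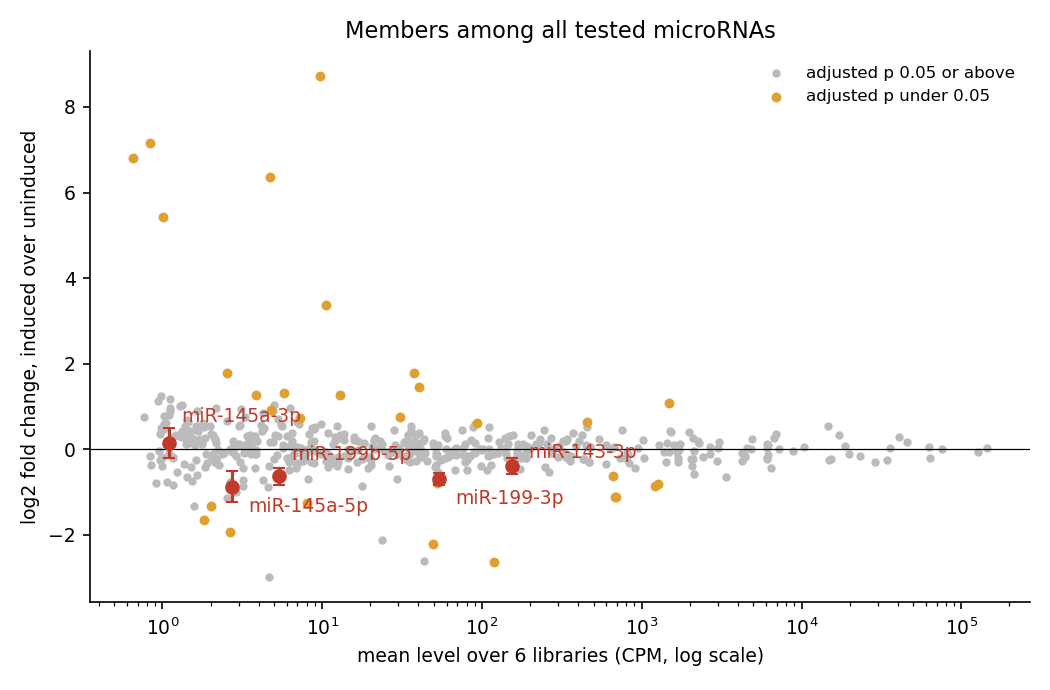
Log2 fold change of induced over uninduced cells (vertical axis) against mean level in CPM (horizontal axis, log scale) for the tested microRNAs, with miR-199-3p drawn once. Red points with error bars (SE of the fit) are the 5 tested members, and orange points passed edgeR's adjusted p of 0.05 without the block. miR-199-3p lies at -0.69, and miR-145a-3p, at 0.15, is the member above 0.

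**Figure D3:**
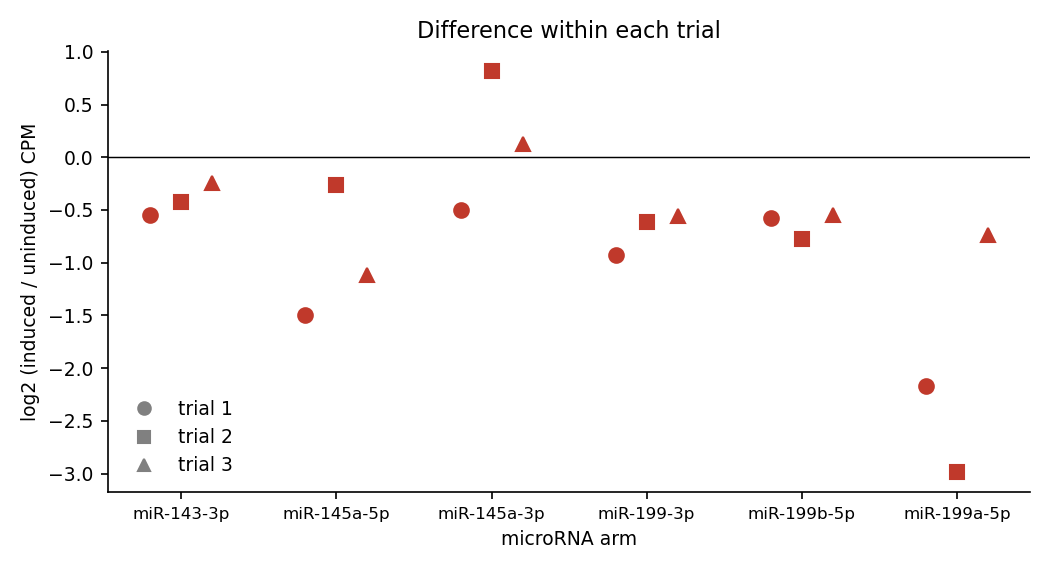
Log2 ratio of induced to uninduced CPM within each trial (vertical axis) for 6 arms (horizontal axis), 1 point per trial. All 3 trials lie below 0 for every arm shown except miR-145a-3p, where trials 2 and 3 lie above it.

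Within trials, 4 of the 5 tested members were lower in induced cells in each of the 3 trials, as were 29.5% of all tested microRNAs. miR-199-3p and miR-199b-5p had log2 differences between -0.93 and -0.55 in every trial. miR-145a-5p varied more, with -1.50, -0.26 and -1.11 in trials 1, 2 and 3.

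Ratios of reads within a library do not depend on scaling, and 6 of them were compared between the groups by a two-sided exact permutation test, whose smallest possible p with 3 against 3 libraries is 0.1. The ratios over miR-214 arms were not computed, because both arms were at or below the floor. The summed reads of miR-143 and miR-145a exceeded those of miR-199 and miR-214 by 1.57 ± 0.14 in induced and 1.28 ± 0.15 in uninduced cells on the log2 scale (SD, n = 3 each). The difference of 0.29 had no overlap between groups (exact p = 0.1, adjusted p = 0.2 over the 6 ratios). The arm ratio of miR-145a, 3p over 5p, averaged -0.64 ± 0.35 in induced and -1.72 ± 0.30 in uninduced cells on the same scale, also with no overlap (exact p = 0.1, adjusted p = 0.2). The ratio of miR-199b-5p to miR-199a-5p averaged 4.35 ± 0.30 in induced and 3.27 ± 0.55 in uninduced cells, again without overlap (exact p = 0.1, adjusted p = 0.2), and rests on the 25 reads assigned to miR-199a-5p.

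The remaining ratios overlapped between the groups. The 3p arm of miR-199 exceeded both 5p arms together by 3.21 ± 0.20 in induced and 3.20 ± 0.22 in uninduced cells on the log2 scale (SD, n = 3 each), a difference of 0.01 (exact permutation p = 0.7). Pooled over libraries, that is 9.44 and 9.30 reads of the 3p arm per 5p read in induced and uninduced cells. There were 0.0135 miR-145a-5p reads per miR-143-3p read in induced and 0.0197 in uninduced cells, a log2 difference of -0.54 (exact permutation p = 0.4). The arm ratio of miR-143 differed by 0.34 (exact permutation p = 0.7) and rests on 7 reads of the 5p arm.

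**Figure D4:**
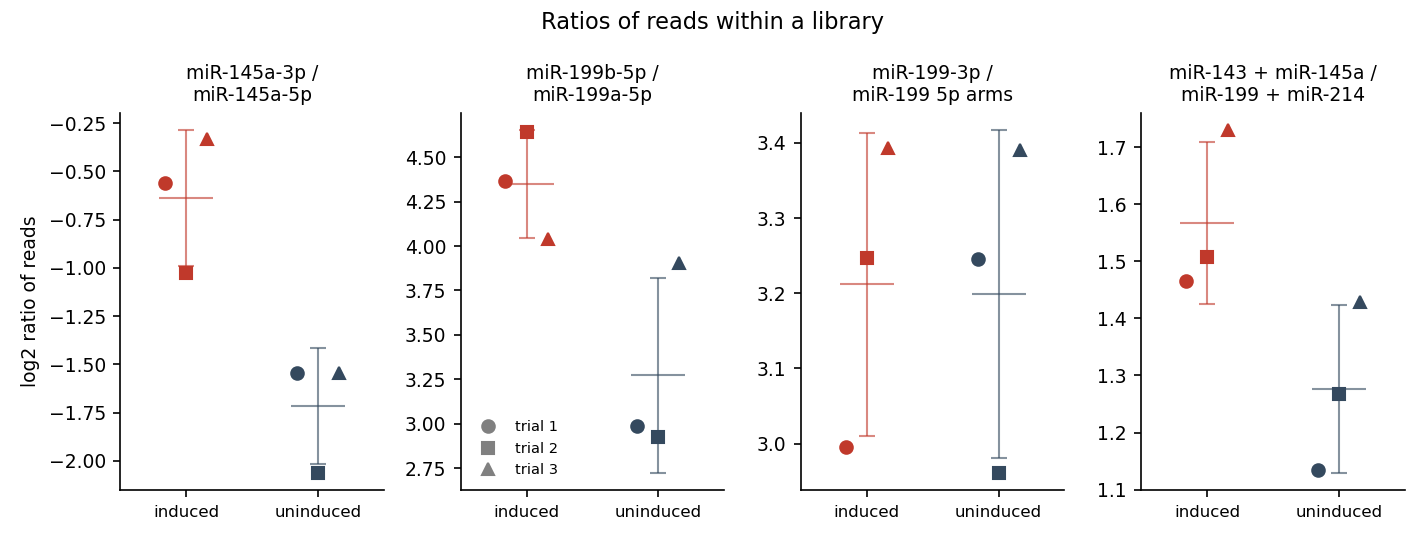
Log2 ratio of reads within each library (vertical axes, each with its own range) for 4 pairs of arms or arm sums, in 3 induced and 3 uninduced libraries. Points are libraries, with the trial given by the symbol, and lines with error bars are means and SDs. The groups are apart in every panel shown except that of miR-199-3p over the miR-199 5p arms.

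The microRNAs most like each locus in their pattern were named by the root mean square difference of log2 CPM over the 6 libraries, after each microRNA was centred on its own mean, among 320 non-member microRNAs of at least 10 CPM. miR-143-3p was closest to miR-20a-5p (difference 0.0748), miR-142b (0.105) and miR-18a-5p (0.1231), where the median over all compared was 0.338. miR-20a and miR-18a are hairpins of the Mir17hg transcript. Like miR-143-3p, they did not pass the unblocked test, with miR-20a-5p at 1515 ± 287 CPM in induced and 1854 ± 218 CPM in uninduced cells (SD, n = 3 each). miR-199-3p was closest to miR-221-5p (0.0938), miR-132-3p (0.121) and miR-5100 (0.122), with a median of 0.406. miR-132-3p had 38.5 ± 5.47 CPM in induced and 66.1 ± 6.00 CPM in uninduced cells (SD, n = 3 each). Like miR-199-3p, it was called lower without the block (log2 fold change -0.78, edgeR adjusted p = 0.020). So was miR-221-5p (-0.62, edgeR adjusted p = 0.0499), while miR-5100 was not (-0.70, edgeR adjusted p = 0.063). The difference between miR-143-3p and miR-199-3p themselves was 0.186, that between miR-199-3p and miR-199b-5p 0.164, and that between miR-143-3p and its transcript neighbour miR-145a-5p 0.551. Low counts widen this measure, and miR-145a-5p had 164 reads in all.

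Other microRNAs known from mesenchymal cells or fibroblasts were read beside the members. Of the 12 on this list, 8 had reads and 6 were tested. In edgeR's adjusted test 1 rose and 1 fell, against 3.43% of all tested called higher and 2.67% lower. The riser, miR-218-5p, had 58 reads in induced and 0 reads in uninduced cells, a direction that the filter fixes for a microRNA absent from one group, and without it 0 rose. With the block 1 rose and 2 fell, against 10.7% of all tested called higher and 11.0% lower. The added one was miR-125b-5p (log2 fold change -0.82, SE 0.26, edgeR adjusted p = 0.039). Both miR-218-5p and miR-125b-5p were named after their values were seen. DESeq2 called 1 higher and 1 lower, and limma-voom 1 higher and 0 lower. Their median log2 fold change was -0.16, with miR-218-5p set to a floor of 3 reads over the uninduced group or as fitted, and -0.29 without it, against 0.02 for all tested microRNAs. Their summed level was 176 to 233 CPM in the induced and 191 to 217 CPM in the uninduced libraries. Most of it was miR-152-3p, at 164 ± 30.7 CPM in induced and 167 ± 16.6 CPM in uninduced cells (SD, n = 3 each; log2 fold change -0.03, SE 0.16). miR-195a-5p, of the miR-15 and miR-16 seed family, had a log2 fold change of 0.19 (SE 0.16), which did not pass. miR-34c-5p, a p53 target, fell to 4.71 ± 0.603 CPM in induced cells, against 11.2 ± 4.32 CPM in uninduced cells (SD, n = 3 each; log2 fold change -1.24, SE 0.29, edgeR adjusted p = 0.035). miR-409-3p, miR-376c-3p, miR-1247-5p and miR-145b had 0 reads in all libraries.

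Markers of further cell types were read beside these values. The 7 muscle microRNAs summed to 0.581 to 0.785 CPM in the induced and 0.778 to 1.28 CPM in the uninduced libraries. None of them was tested, and miR-206-3p and miR-208a-3p were at 0. The 2 endothelial arms of miR-126a summed to 605 to 951 CPM in the induced and 588 to 920 CPM in the uninduced libraries, and neither passed, with 0 at an unadjusted edgeR p under 0.05 and 0 called by DESeq2 or limma-voom. Liver miR-122-5p stayed at or below 0.224 CPM in the induced and 0.222 CPM in the uninduced libraries, and the erythroid list, with miR-144-3p at 0, at or below 0.367 CPM in the induced and 0.366 CPM in the uninduced ones. The neural list summed to 11.9 to 12.8 CPM in the induced and 13.3 to 15.7 CPM in the uninduced libraries, with miR-124-3p at 0. Of its 2 tested members 0 were called by edgeR, DESeq2 or limma-voom, and 1 was lower at an unadjusted edgeR p under 0.05, miR-129-5p, with 1.59 ± 0.550 CPM in induced and 3.45 ± 0.234 CPM in uninduced cells (SD, n = 3 each; edgeR adjusted p = 0.055, and 0.014 with the block). Epithelial microRNAs moved with the groups in the direction opposite to miR-199-3p. Of the 7, 5 were tested, and these may not be independent of each other. Without the block 3 rose, against 3.43% of all tested called higher. They were miR-200b-3p (edgeR adjusted p = 0.0499), miR-200c-3p (0.0349) and miR-141-3p (8.00e-04). DESeq2 called 2 of them higher, all but miR-200b-3p, and limma-voom called 1, miR-141-3p. With the block 4 rose, against 10.7% of all tested called higher. The added one, named after its values were seen, was miR-429-3p (log2 fold change 1.24, SE 0.40, edgeR adjusted p = 0.043). The list summed to 81.2 to 101 CPM in the induced and 32.2 to 39.8 CPM in the uninduced libraries. Their part in the members' differences was not tested.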

How the data were processed

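The submitters' processing notes list Trim Galore 0.4.0, the mm10 build and DESeq2 with the version 2.1.8.0, and the series' design text states an alignment to miRBase. For the read counter, multiple matches, mismatches and strand, the sources used here give no settings. The authors deposited raw read counts for 2061 entries (1915 mature names) and the same values as CPM, used in 1 alternative. Of several entries for a name the one with the highest total was kept, which left out 17.5% of the reads of the table.

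The test was that of edgeR 4.0.16, run in R 4.3.3 (TMM, filterByExpr, robust glmQLFit, glmQLFTest, two-sided, group alone, Benjamini-Hochberg adjustment over 525 microRNAs at 0.05), which left 1390 names untested. Ratios within a library used 0.5 added to each count and exact permutation. Log2 CPM for the pattern comparison had a prior count of 2. Deviations of libraries of the same trial from their group means correlated by 0.33, 0.45 and 0.53, each above 0.1. Across trials the highest such correlation was 0.04. The trials thus pair the libraries, and the fit with the trial as a block is given where it changes a call. The fit without the block was kept as the main one because the study text does not state a block. Counts of libraries of 1 group differed beyond counting error (chi-square statistic at least 98.7 times its degrees of freedom). Libraries and not reads were therefore the unit of the tests, which does not show that the libraries are independent cultures. The edgeR fit without the block was tested on simulated counts drawn without a trial effect, so this does not test it for paired libraries. Hairpin positions come from GENCODE M21 and RefSeq on GRCm38, the assembly called mm10. All members are named, with the 3 nearest patterns per locus and up to 3 abundant tested microRNAs per marker list. Members, lists and tests were chosen with earlier results of these data known. Alternatives were other scalings, filters, entry choices, tools, the block and leaving out libraries.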

Additional observations from a re-analysis of the deposited data

How the results depend on the processing

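The call of miR-199-3p as lower held under DESeq2 size factors, library totals alone, no filter, the sum or the lowest of the entries, miR-199b-3p left out of the table, DESeq2, limma-voom and the deposited CPM in limma. The number of members called lower was 1 in these, 0 to 1 when 1 library was left out, 4 with the replicate block and 0 to 2 with the block when a trial was left out. No setting called a member higher. Of all tested microRNAs, 32 were called, 22 to 48 under the settings named first, 12 to 41 when 1 library was left out, 114 with the replicate block, and 66, 60 and 12 with the block without trials 1, 2 and 3. The log2 fold change of miR-145a-3p was -0.087 (reversed, without induced replicate 2) to 0.36 when 1 library was left out, and it reversed to -0.16 with the block and without trial 2. The log2 arm ratio difference reversed for miR-143, with a range of -0.21 (without induced replicate 1) to 1.07, and for miR-199, with a range of -0.11 to 0.12, to -0.0047 without induced replicate 2, -0.08 without induced replicate 3 and -0.11 without uninduced replicate 2. The causes were not tested. The other tested members and the other ratios kept their direction in every setting run. Untested members were not followed across settings. Exchanging signs within trials gave the ratio of the loci an exact p of 0.25, the smallest that 3 pairs allow. Depth limits miR-143-5p, miR-199a-5p and miR-214, with 0 to 25 reads in all, and the split of miR-199-3p reads among hairpins cannot be had from these tables.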
